A study of Homo sapiens with 6 samples.

Results

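The integrated stress response and the unfolded protein response were examined through 44 genes of the 59608 with usable counts in RNA-seq of HepG2, an established human liver cancer cell line. The genes were taken by name from a list of known members, of which 27 belong to an ATF4 arm and 17 to an XBP1/ATF6 arm, and the rule for them uses names alone. Of the 44 names, 41 matched the table directly and 3 (AARS, GARS and WARS) matched under their newer symbols AARS1, GARS1 and WARS1. VEZF1 is a zinc finger transcription factor that carries the sugar O-GlcNAc on serine residues. In all 6 libraries endogenous VEZF1 had been silenced with an sgRNA delivered by lentivirus, and a form of VEZF1 was then put back. The VEZF1-WT group (3 libraries) received the wild-type protein, which can carry the sugar. The VEZF1-2A group (3 libraries) received a double mutant in which a pair of neighbouring serines was replaced by alanine. The paper reports that this mutation markedly lowered the O-GlcNAc level of VEZF1. The study compared the forms to ask which transcripts depend on the O-GlcNAc of VEZF1. HepG2 is 1 cell line, cells with intact VEZF1 and silenced cells without re-expression were not analysed here, and the labels do not say whether the replicates were separate cultures, so p-values measure only the spread between these libraries, which may be technical.

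When unfolded proteins gather in the endoplasmic reticulum (ER), the membrane sensor IRE1 (gene ERN1) splices the XBP1 transcript, ATF6 is cut to release a transcription factor, and PERK phosphorylates the translation factor eIF2. XBP1 and ATF6 raise the chaperones and the disposal machinery of the ER. PERK and the related kinases that sense amino acid loss, haem loss and viral RNA all act on eIF2, and the ensuing translation of ATF4 switches on genes for amino acid synthesis, uptake and tRNA charging. Hepatocytes secrete large amounts of plasma protein, and ER chaperones are abundant in them.

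The libraries held 47414775, 35272710 and 57199396 counts in VEZF1-WT replicates 1 to 3, and 28756765, 39565464 and 33966492 in VEZF1-2A replicates 1 to 3. Hepatocyte markers were high, with ALB at a mean of 2332 TPM (counts per exon length, scaled to the same total in every library) and AFP, the fetal liver protein that HepG2 secretes, at 1945 TPM. Of the markers for other cells, the fibroblast gene LUM had 0 counts in every library and the immune gene PTPRC had a mean of 0.0189 TPM, whereas LYZ, the lysozyme gene listed as an immune marker, stood at 819 TPM. VEZF1 itself (GRCh38 chr17:57971547-57988259) was read at 59.3, 45.6 and 40.0 CPM (counts scaled to library size with edgeR's TMM factors, not per length) in VEZF1-WT and at 46.2, 48.6 and 38.9 CPM in VEZF1-2A. These groups overlapped (log2 fold change of VEZF1-WT over VEZF1-2A 0.12, SE 0.13, exact permutation p = 0.7). The gene count does not tell the re-expressed transcript from the endogenous one, nor one form from the other, so it does not check the labels.

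The promoters show how the arms differ in sequence. In the RefSeq windows of GRCh38.p14 from 250 bases before to 50 bases after a gene start, 39 of the 44 members had a window. The ER stress element, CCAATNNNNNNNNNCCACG on either strand, to which ATF6 binds together with NF-Y, was found in 27 of 35116 windows of all genes (0.0769%), in 6 of the 20 windows of the XBP1/ATF6 arm (30%) and in 0 of the 33 windows of the ATF4 arm. The amino acid response element in the form TGATGNAAN, to which ATF4 binds with a C/EBP partner, was found in 3.61% of all windows, in 8 of the 33 windows of the ATF4 arm (24.2%) and in 1 of the 20 of the XBP1/ATF6 arm (HERPUD1). The core of the unfolded protein response element, TGACGTG, was found in 1.97% of all windows, in 0 windows of the ATF4 arm and in 1 of the XBP1/ATF6 arm (HYOU1). Over the 15937 windows of genes with enough counts to be tested, the shares of these motifs were 0.119%, 2.11% and 2.43%, in this order. No match to one of these motifs overlapped a match to another in a member's window. A match of letters is a description of the window and not a measured binding site.

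HSPA5 is the gene of the chaperone BiP and the usual reporter of the unfolded protein response. The 250 bases before its start are given whole, 5′ to 3′ in the direction of the gene. They lie on the minus strand at chr9:125241344-125241593. Capitals mark the exact match to the ER stress element, which sits from 66 to 48 bases before the start. Near matches were not searched for and are not marked.
HSPA5: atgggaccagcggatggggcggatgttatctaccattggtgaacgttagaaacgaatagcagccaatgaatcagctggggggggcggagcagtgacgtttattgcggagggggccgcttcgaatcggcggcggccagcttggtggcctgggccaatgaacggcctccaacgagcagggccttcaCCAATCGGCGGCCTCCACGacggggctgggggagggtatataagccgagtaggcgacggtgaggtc

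The other matches to the ER stress element are shown in windows of 29 bases because they can be set against the HSPA5 element letter by letter. In the windows of CALR, CRELD2 and the second of HSP90B1 the capitals hold the element on the opposite strand. HSP90B1 (chr12:103930211-103930239 and chr12:103930316-103930344, plus strand) carried 2 matches.
HSP90B1 first match: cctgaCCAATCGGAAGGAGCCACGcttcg
HSP90B1 second match: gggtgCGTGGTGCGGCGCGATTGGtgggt
CALR (chr19:12938379-12938407, plus strand): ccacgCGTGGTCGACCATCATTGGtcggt
PDIA6 (chr2:10812848-10812876, minus strand): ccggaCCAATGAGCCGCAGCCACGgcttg
CRELD2 (chr22:49918549-49918577, plus strand): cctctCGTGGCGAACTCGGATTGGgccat
XBP1 (chr22:28800598-28800626, minus strand): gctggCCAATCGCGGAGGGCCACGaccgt

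Of the matches to the ATF4 element, 4 are shown, with the match in capitals. They are those of ASNS, the usual reporter of ATF4, of CEBPG, the gene of a C/EBP partner, and of FGF21 and CHAC1, the members at or near 0 counts here. The capitals of the last pair hold the element on the opposite strand.
ASNS (chr7:97872458-97872486, minus strand): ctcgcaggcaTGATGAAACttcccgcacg
CEBPG (chr19:33374061-33374089, plus strand): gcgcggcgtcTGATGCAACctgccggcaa
FGF21 (chr19:48755459-48755487, plus strand): aaacaccaggATTGCATCAgggaggagga
CHAC1 (chr15:40953251-40953279, plus strand): ctcccctgccGTTGCATCActcctgccag

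By level, the XBP1/ATF6 arm was the larger part of the transcriptome. Its 17 genes together took 0.674%, 0.657% and 0.765% of TPM with VEZF1-WT and 0.61%, 0.65% and 0.742% with VEZF1-2A, whereas the 27 genes of the ATF4 arm took from 0.112% to 0.134%. The calcium-binding chaperone CALR was the most abundant member, at 2299 ± 228 TPM in VEZF1-WT and 2175 ± 250 in VEZF1-2A (mean ± SD, n = 3 libraries each), followed by the HSP90 paralog of the ER, HSP90B1, at 1914 ± 151 and 1868 ± 206 TPM. The mean ± SD of these neighbours overlapped in VEZF1-2A and fell just short of it in VEZF1-WT, and HSPA5 came next, well below them, at 904 ± 74.7 and 866 ± 71.3 TPM. The disulfide isomerases PDIA4 and PDIA6 and the transcription factor XBP1 formed a further tier between 409.7 and 494 TPM. The sensors were low, with ATF6 at 7.94 ± 0.593 and 8.10 ± 0.201 TPM and ERN1 at 2.10 ± 0.454 and 2.09 ± 0.336 TPM.

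In the ATF4 arm, ATF4 itself was highest, at 227 ± 11.7 TPM in VEZF1-WT and 223 ± 23.8 in VEZF1-2A. The translation repressor EIF4EBP1 followed at 194 ± 24.5 and 180 ± 24.2 TPM, and the eIF2 phosphatase subunit PPP1R15A at 160 ± 27.5 and 155 ± 18.7 TPM, so that each of these overlapped the next in mean ± SD in both groups. At the low end stood ATF3 at 5.95 ± 1.03 and 5.40 ± 0.474 TPM, ASNS at 5.01 ± 0.887 and 6.35 ± 2.70 TPM, CBS at 4.81 ± 0.102 and 5.46 ± 0.672 TPM, CTH, VLDLR and, lowest of the genes tested, the mitochondrial folate enzyme ALDH1L2 at 0.532 ± 0.0435 and 0.738 ± 0.275 TPM. FGF21, a liver hormone, had 0 counts in all 6 libraries, and CHAC1, a glutathione-degrading enzyme, had counts in VEZF1-2A replicate 2 alone, at 0.05 CPM. A count of 0 allows up to 3 counts, or from 0.0532 to 0.103 CPM by library, for counting error only, so neither gene could be compared. The remaining 42 members passed the filter on low counts and were tested.

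**Figure D1:**
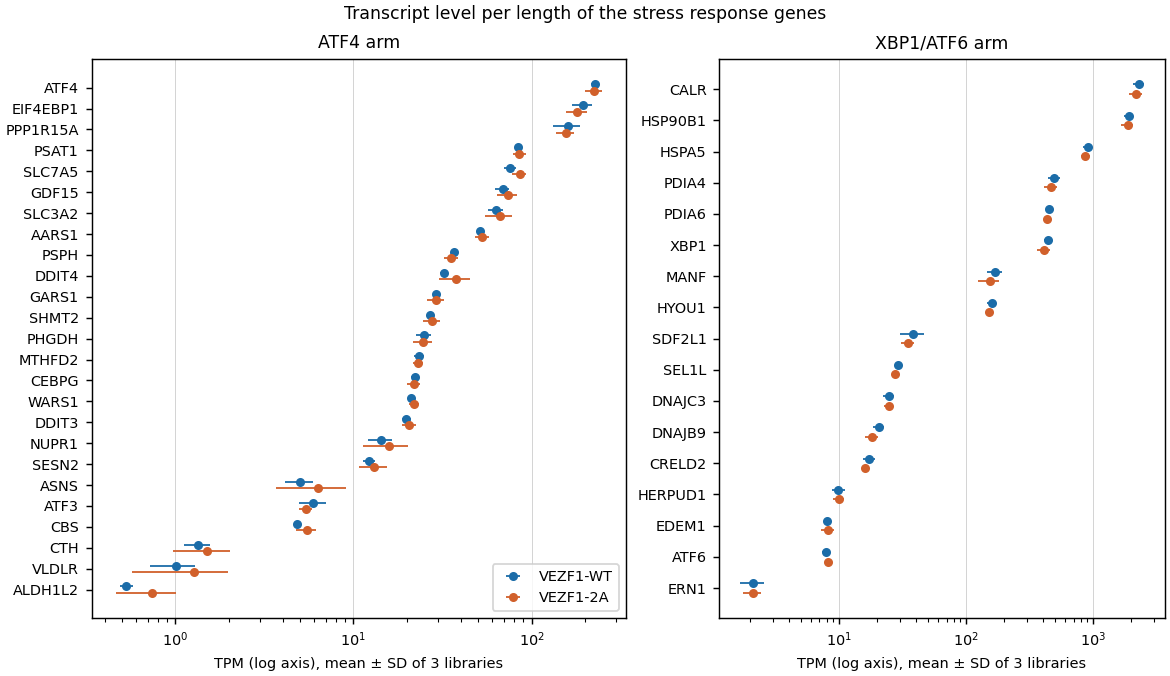
Level per exon length (TPM, log axis) of the 42 members tested, ATF4 arm on the left and XBP1/ATF6 arm on the right. Points are means of 3 libraries and bars 1 SD; VEZF1-WT is blue and VEZF1-2A orange, and the levels run from 0.532 TPM (ALDH1L2) to 2299 TPM (CALR), with the groups close together at each gene.

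Between VEZF1-WT and VEZF1-2A, no gene of the table passed the test after Benjamini-Hochberg adjustment (0 of 19111, 0%; smallest adjusted p 0.9996 by edgeR's quasi-likelihood test), and so none of the 42 members tested did. DESeq2's test called 3 genes and limma voom 0, and members were not among them. In bulk RNA, fewer cells in a given state and less RNA per cell cannot be told apart. At an unadjusted p under 0.05, 159 genes were higher in VEZF1-WT (0.832%) and 249 were lower (1.3%). In the ATF4 arm, 0 of 25 members were higher and 1 was lower (SLC7A5). In the XBP1/ATF6 arm, 0 of 17 passed in either direction, and the smallest unadjusted p was 0.2027, for DNAJB9. Groups that did not overlap were found for 3.5% of all genes with VEZF1-WT above and 3.86% with VEZF1-WT below. The members held 1 such gene, CBS, with VEZF1-WT below.

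The median log2 fold change was -0.054 in the ATF4 arm, where 17 of 25 values were below 0, and 0.05 in the XBP1/ATF6 arm, where 12 of 17 were above 0, beside 0.000 over all genes tested. The ATF4 arm median was -0.014 over the 14 members left when overlapping genes were taken out. It turned to 0.046 without VEZF1-2A replicate 2, and that of the XBP1/ATF6 arm to -0.037 without VEZF1-WT replicate 3. The fold changes ran from -0.51 (ALDH1L2) to 0.14 (ATF3) in the ATF4 arm and from -0.042 (ATF6) to 0.17 (DNAJB9) in the XBP1/ATF6 arm. The median width of their 95% intervals, from the lower to the upper bound, was 0.45, and differences inside these intervals were not detectable here.

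**Figure D2:**
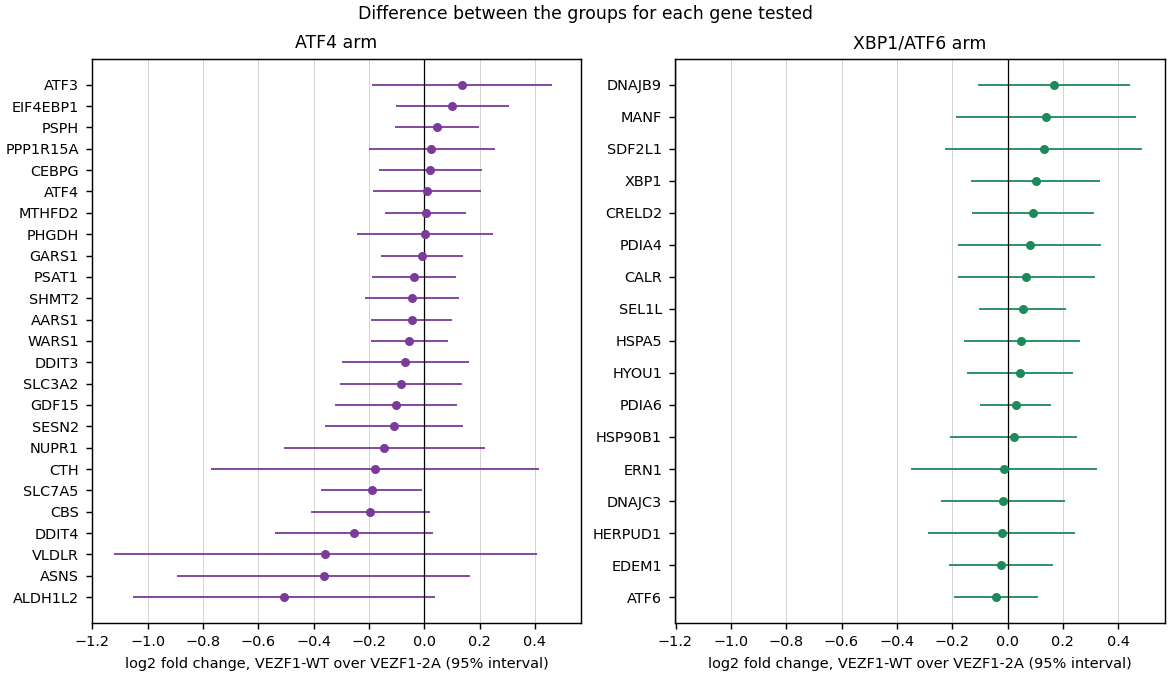
Log2 fold change of VEZF1-WT over VEZF1-2A for each member tested (x axis, points) with its 95% interval from edgeR (lines), ordered by size within each arm. Only the interval of SLC7A5, from -0.37 to -0.008, leaves out 0, and ALDH1L2, VLDLR, ASNS and CTH have wide intervals.

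Single libraries stood apart within the groups, and they were different libraries in each arm. Each gene's log2 CPM was compared with its own mean over the 6 libraries. In the XBP1/ATF6 arm the median deviation was 0.19 in VEZF1-WT replicate 3 and 0.16 in VEZF1-2A replicate 3, while it was -0.033 and -0.082 in the other VEZF1-WT libraries and -0.14 and -0.083 in the other VEZF1-2A libraries. For 14 of its 17 genes (82.4%) the 2 highest libraries were these replicate 3 libraries, 1 from each group, which was the case for 15.4% of all genes tested. The 14 genes held all 11 of the ER lumen chaperones, cochaperones and foldases, XBP1, HERPUD1 and SEL1L. All 6 genes with an ER stress element in their window were among them, as were 8 of the 11 without one. The exceptions were EDEM1, ATF6 and ERN1.

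The ATF4 arm did not share this pattern, with 1 gene of 25 (4%) highest in both replicate 3 libraries. Its median deviation was 0.17 in VEZF1-2A replicate 2 and between -0.054 and -0.013 in the other 5 libraries. All 25 members were above their own mean in VEZF1-2A replicate 2, and 19 of the 25 (76%) were highest there, compared with 16.5% of all genes. The 6 that were not were ATF3, PHGDH, CEBPG, MTHFD2, PPP1R15A and EIF4EBP1. Since these are patterns over genes of the same 6 libraries, they are given as a description without a test, and the genes are not independent replicates.

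**Figure D3:**
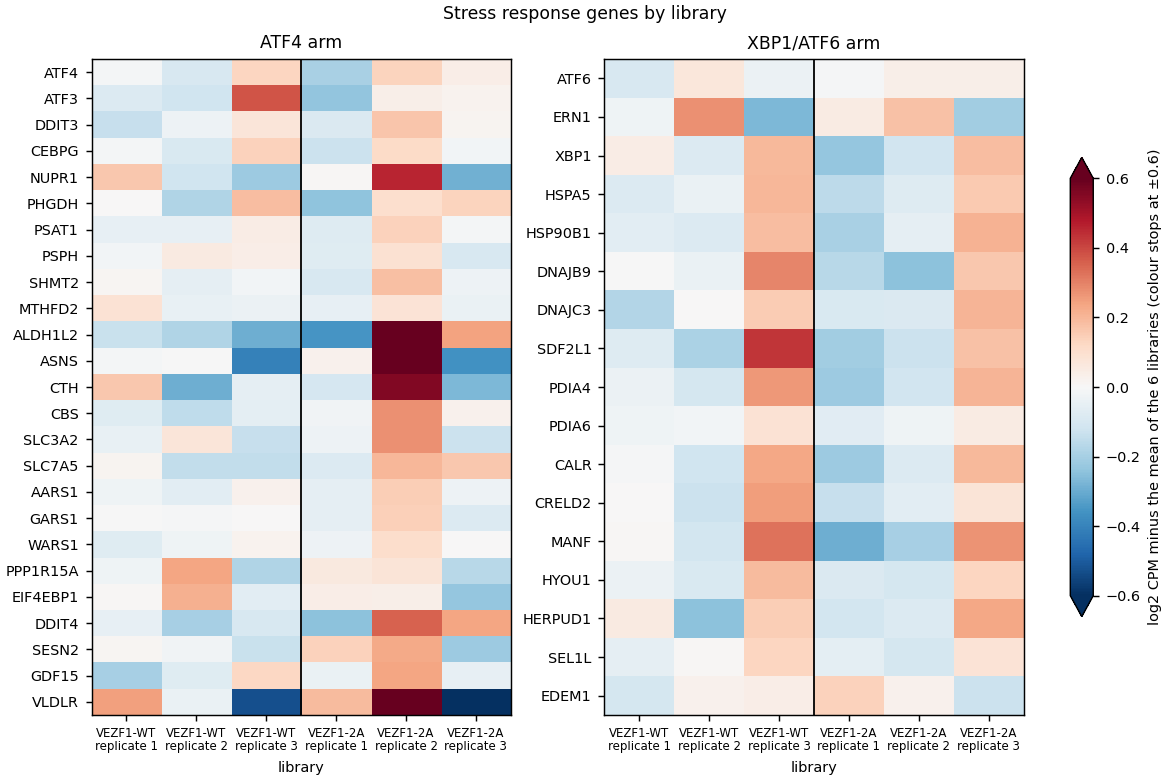
Log2 CPM minus the gene's mean over the 6 libraries, for the members tested (rows, by role) in each library (columns, VEZF1-WT left of the line and VEZF1-2A right of it); red is above and blue below the mean, and the colour stops at 0.6 either way. Red stands in the VEZF1-2A replicate 2 column of the ATF4 arm and in both replicate 3 columns of the XBP1/ATF6 arm.

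Other genes also varied between the libraries, in part along the same lines. The hepatocyte markers, 12 of 12 tested, summed to 16300, 16190 and 20590 CPM in VEZF1-WT and to 15500, 18810 and 20000 CPM in VEZF1-2A, and 7 of the 12 (58.3%) had both replicate 3 libraries on top. APOB, their most abundant gene by CPM, had 5689, 5755 and 6719 CPM in VEZF1-WT and 5565, 6409 and 6559 CPM in VEZF1-2A, and AFP was at 3643 and 3482 CPM in the replicate 3 libraries against 1763 to 2065 CPM in the others. A list of 10 mitosis genes, chosen after the values were seen, summed to 2066, 1613 and 1962 CPM in VEZF1-WT and to 1682, 1616 and 2094 CPM in VEZF1-2A. Of these, 3 (30%) had both replicate 3 libraries on top, and the list was also high in VEZF1-WT replicate 1. Mitochondrial genes took 7.94%, 8.03% and 8.28% of the counts of VEZF1-WT libraries, and 8.29%, 8.55% and 8.54% with VEZF1-2A. Their share was higher in every VEZF1-2A library, but only just, with 8.276% in VEZF1-WT replicate 3 and 8.285% in VEZF1-2A replicate 1. VEZF1-WT replicate 3 was the deepest library while VEZF1-2A replicate 3 was not. The part of these in the patterns was not tested.

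Among the stress transcription factors of the ATF4 arm, ATF4 (chr22:39519672-39522683) had 257.3, 242.5 and 283.1 CPM in VEZF1-WT and 226.5, 284.1 and 267.0 CPM in VEZF1-2A. The groups overlapped throughout (log2 fold change 0.01, SE 0.088, exact permutation p = 1, 95% interval -0.18 to 0.2), and the lowest and the highest library were both VEZF1-2A. ATF4 is controlled mainly through its translation, which these counts do not measure. ATF3 (chr1:212565334-212620777), a repressor that ATF4 induces, had 8.54, 8.31 and 11.8 CPM in VEZF1-WT and 7.65, 9.24 and 9.17 CPM in VEZF1-2A. It was high in VEZF1-WT replicate 3 alone, and the groups overlapped (0.14, SE 0.15, exact permutation p = 0.6). DDIT3 (chr12:57516588-57521737), which encodes the proapoptotic factor CHOP, had 9.49, 10.3 and 11 CPM against 9.85, 11.8 and 10.6 CPM, also overlapping (-0.069, SE 0.1, exact permutation p = 0.6). Its exons overlap those of MARS1, MBD6 and AC022506.1, whose counts together were 639.7% of its own, so its reads may be shared with them. CEBPG and NUPR1, the other factors, had log2 fold changes of 0.022 and -0.14 and overlapping groups.

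Of the 6 enzymes of serine synthesis and one-carbon metabolism, 3 had log2 fold changes above 0 and 3 below, with overlapping groups. PHGDH (chr1:119648411-119744218), the first enzyme of serine synthesis, had 89.9, 79.1 and 102.1 CPM in VEZF1-WT and 76.0, 96.1 and 98.4 CPM in VEZF1-2A. Its groups overlapped (log2 fold change 0.004, SE 0.11, exact permutation p = 1), with the lowest values in VEZF1-2A replicate 1 and VEZF1-WT replicate 2. PSAT1 (chr9:78297125-78330093), the transaminase of the next step, had 71.6, 71.4 and 76.4 CPM against 70.2, 81.4 and 73.5 CPM, and again the groups overlapped (-0.037, SE 0.068, exact permutation p = 0.7). PSPH, SHMT2 and MTHFD2 had log2 fold changes between -0.044 and 0.047. ALDH1L2, named after its values were seen, had the largest fold change of any member at -0.51 (SE 0.25, exact permutation p = 0.4), with 2.09, 2.02 and 1.86 CPM in VEZF1-WT and 1.78, 3.85 and 2.75 CPM in VEZF1-2A. VEZF1-2A replicate 1 was below all VEZF1-WT libraries, and the gene shares exon positions with WASHC4 and C12orf45, whose counts were 2516% of its own. Its fold change was -0.19 without VEZF1-2A replicate 2 and -0.73 without VEZF1-2A replicate 1, the latter under an unadjusted p of 0.05.

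ASNS (chr7:97851677-97872542), which makes asparagine, had 10.5, 10.6 and 7.95 CPM in VEZF1-WT and 10.8, 18.0 and 8.21 CPM in VEZF1-2A. VEZF1-2A replicate 2 stood 2.26-fold above the lowest library, VEZF1-2A replicate 1 was just above the highest VEZF1-WT value and VEZF1-2A replicate 3 lay among the VEZF1-WT values, and the difference between groups did not pass (log2 fold change -0.36, SE 0.24, p = 0.1586, exact permutation p = 0.4). Without VEZF1-2A replicate 2 it was 0.024, and without VEZF1-2A replicate 3 it was -0.59 and under an unadjusted p of 0.05. A non-coding gene that overlaps its exons, AC079781.5, had 162% of its counts. CBS (chr21:43053191-43076943), which condenses homocysteine with serine, had 13.1, 12.4 and 13.2 CPM in VEZF1-WT and 13.6, 16.6 and 14.03 CPM in VEZF1-2A. It was the only member whose groups were apart, by a gap between 13.22 and 13.55 CPM, and its difference did not pass the test (-0.2, SE 0.097, p = 0.07199, exact permutation p = 0.1, the smallest that 3 libraries against 3 allow). It was -0.096 without VEZF1-2A replicate 2, and under an unadjusted p of 0.05 at -0.25 without VEZF1-2A replicate 1. CTH, the next enzyme on the way to cysteine, was at 1.07 to 1.5 CPM in VEZF1-WT and 1.09 to 2.00 CPM in VEZF1-2A, overlapping.

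The heavy chain SLC3A2 and the light chain SLC7A5 form a transporter for large neutral amino acids. SLC7A5 (chr16:87830023-87869507) had 154.0, 137.1 and 137.1 CPM in VEZF1-WT and 143.5, 174.6 and 170.2 CPM in VEZF1-2A, so that VEZF1-2A replicates 2 and 3 were above every VEZF1-WT library and VEZF1-2A replicate 1 was not. It was the only member with an unadjusted p under 0.05 (log2 fold change -0.19, SE 0.082, 95% interval -0.37 to -0.008, p = 0.04185, adjusted p = 0.9996 by edgeR), and the exact permutation p was 0.2. With VEZF1-WT replicate 2 or 3 or VEZF1-2A replicate 2 or 3 left out, the fold change was between -0.14 and -0.16 and no longer under that threshold. SLC3A2 had 127.4, 138.0 and 119.4 CPM against 128.5, 159.0 and 119.9 CPM, with overlapping groups and a log2 fold change of -0.084 (SE 0.099). The tRNA synthetases AARS1, GARS1 and WARS1, which charge tRNAs with alanine, glycine and tryptophan, were all highest in VEZF1-2A replicate 2, with 234.4, 220.8 and 58.4 CPM there. Between groups they differed by -0.045, -0.008 and -0.054 on the log2 scale and overlapped.

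Of the genes that feed back on translation and mTORC1, PPP1R15A and EIF4EBP1 were highest in VEZF1-WT replicate 2, with 223.8 and 75.2 CPM, and had log2 fold changes of 0.026 and 0.1. DDIT4 and SESN2, inhibitors of mTORC1, were highest in VEZF1-2A replicate 2, with 35.98 and 20.2 CPM. DDIT4 had 27.3, 24.5 and 26.3 CPM in VEZF1-WT and 23.7, 35.98 and 33.2 CPM in VEZF1-2A. VEZF1-2A replicate 1 was the lowest library and replicates 2 and 3 of that group the highest (-0.25, SE 0.13, exact permutation p = 0.4), and the antisense gene DDIT4-AS1 overlaps it with 84.05% of its counts. The fold change of DDIT4 was -0.13 without VEZF1-2A replicate 2 and -0.41 without VEZF1-2A replicate 1, the latter under an unadjusted p of 0.05. The secreted factor GDF15 (chr19:18374731-18389176), a stress hormone, had 51.0, 55.7 and 63.8 CPM in VEZF1-WT and 57.0, 69.1 and 56.7 CPM in VEZF1-2A, overlapping (-0.1, SE 0.099, exact permutation p = 0.5). VLDLR, a lipoprotein receptor, varied the most of all members inside a group, with 4.69, 3.82 and 2.70 CPM in VEZF1-WT and 4.50, 7.37 and 2.29 CPM in VEZF1-2A. Its highest library was 3.22-fold above its lowest, both were VEZF1-2A, and the difference between groups was -0.36 with an SE of 0.35. That difference was 0.14 without VEZF1-2A replicate 2, and -0.69 and under an unadjusted p of 0.05 without VEZF1-2A replicate 3.

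In the XBP1/ATF6 arm the chaperone HSPA5 (chr9:125234853-125241343) had 1298, 1335 and 1578 CPM in VEZF1-WT and 1230, 1303 and 1533 CPM in VEZF1-2A. The replicate 3 library was the highest of each group and the groups overlapped (log2 fold change 0.05, SE 0.095, exact permutation p = 0.6, 95% interval -0.16 to 0.26). HSP90B1 (chr12:103930107-103953645) had 3364, 3313 and 3994 CPM against 3068, 3384 and 4056 CPM, with the replicate 3 libraries again on top (0.022, SE 0.1, exact permutation p = 1). Overlapping genes held 28.97% of its counts. Of the cochaperones of HSPA5, DNAJB9 (chr7:108569867-108574850) had 19.2, 18.8 and 23.6 CPM in VEZF1-WT and 17.2, 16.2 and 21.6 CPM in VEZF1-2A. Its difference was the largest of the arm and its groups overlapped because VEZF1-2A replicate 3 exceeded VEZF1-WT replicates 1 and 2 (0.17, SE 0.12, exact permutation p = 0.4). Without VEZF1-2A replicate 3 the fold change of DNAJB9 was 0.3 and under an unadjusted p of 0.05, and without VEZF1-WT replicate 3 it was 0.052. DNAJC3, which also binds HSPA5, had a log2 fold change of -0.015.

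SDF2L1 (chr22:21642302-21644299), a partner of the ER DNAJ proteins, had 14.4, 13.3 and 20.5 CPM in VEZF1-WT and 13.1, 13.9 and 17.2 CPM in VEZF1-2A, the widest spread within groups of the arm (log2 fold change 0.13, SE 0.16, exact permutation p = 0.6). CRELD2 (chr22:49918167-49927540), an ER-resident protein with isomerase-like domains, had 33.95, 30.96 and 40.4 CPM against 30.7, 32.5 and 35.8 CPM (0.092, SE 0.1, exact permutation p = 0.6). In both genes the replicate 3 libraries were on top and the groups overlapped. MANF, a secreted ER stress factor named after its values were seen, had 136.0, 125.5 and 169.8 CPM in VEZF1-WT and 110.5, 118.0 and 163.4 CPM in VEZF1-2A. The difference of 0.14 on the log2 scale had an SE of 0.15, and in each group replicate 3 was higher than both other libraries by more than those differed from each other. Without VEZF1-2A replicate 3 the difference was 0.33, and it was 0.21 for PDIA4, both under an unadjusted p of 0.05. Over all fits with 1 library left out, the difference ran from 0.001 to 0.33 for MANF and from -0.039 to 0.21 for PDIA4. CALR, PDIA4, PDIA6 and HYOU1 also had the replicate 3 libraries on top, with log2 fold changes between 0.03 and 0.08. PDIA6 was the steadiest of these, with a highest library 1.115-fold the lowest.

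**Figure D4:**
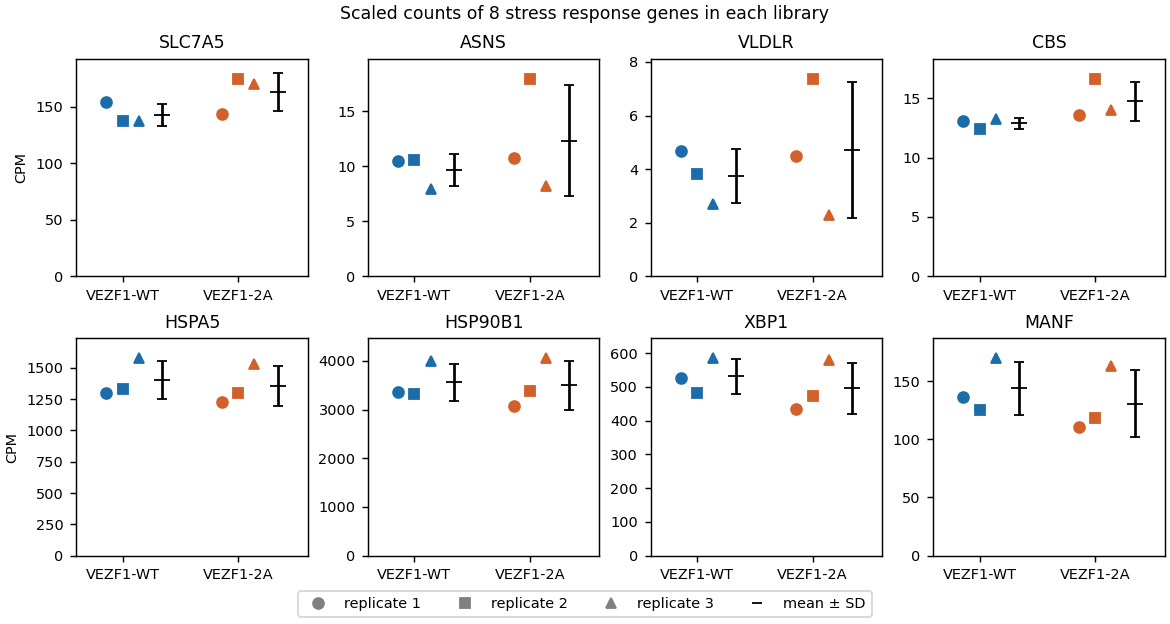
CPM of 4 genes of the ATF4 arm (top) and 4 of the XBP1/ATF6 arm (bottom) in each library, blue for VEZF1-WT and orange for VEZF1-2A, with the replicate number by symbol and the mean ± SD of 3 libraries in black; each axis starts at 0. VEZF1-2A replicate 2 (orange square) is on top in the upper row, from 7.37 CPM for VLDLR to 174.6 CPM for SLC7A5, and the triangles of replicate 3 are on top in the lower row.

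XBP1 (chr22:28794555-28800597), the transcription factor of the arm, had 526.7, 482.1 and 584.7 CPM in VEZF1-WT and 434.0, 471.5 and 580.7 CPM in VEZF1-2A. The replicate 3 libraries were again highest and nearly level with each other, and the groups overlapped (log2 fold change 0.1, SE 0.1, exact permutation p = 0.4). Without VEZF1-2A replicate 3 the fold change of XBP1 was 0.23 and under an unadjusted p of 0.05. Over all fits with 1 library left out, its lowest value was 0.014. A count per gene does not separate the spliced from the unspliced transcript. The sensors did not follow this order. ATF6 (chr1:161766320-161964070) had 23.4, 26.2 and 24.4 CPM against 24.8, 25.6 and 25.6 CPM (-0.042, SE 0.069, exact permutation p = 0.6). ERN1 (chr17:64039142-64130819) had 8.77, 10.8 and 7.38 CPM against 9.23, 10.1 and 7.69 CPM (-0.013, SE 0.15, exact permutation p = 1), so that the replicate 3 libraries were the lowest for this gene in both groups, the reverse of its target XBP1.

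The genes of ER-associated degradation were mixed. HERPUD1 (chr16:56932142-56944864), which helps carry proteins out of the ER for disposal, had 20.6, 16.7 and 22.0 CPM in VEZF1-WT and 18.4, 18.7 and 23.3 CPM in VEZF1-2A, with overlapping groups (log2 fold change -0.021, SE 0.12, exact permutation p = 1). It is also the member of this arm with a match to the ATF4 element. SEL1L, the scaffold of the disposal ligase, was highest in the replicate 3 libraries at 116.9 and 113.2 CPM. EDEM1, a mannosidase-like protein that marks glycoproteins for disposal, had 20.1, 22.1 and 22.3 CPM in VEZF1-WT and 23.8, 22.0 and 19.8 CPM in VEZF1-2A, so that replicate 3 was the highest VEZF1-WT library but the lowest VEZF1-2A library.

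The rest of the pathway was followed in 4 further lists of genes. Of 17 eIF2 kinases, eIF2 and eIF2B subunits and phosphatase genes, 1 was higher at an unadjusted p under 0.05 and 0 were lower, beside 0.832% and 1.3% of all genes, and 1 gene had its groups apart in each direction, beside 3.5% and 3.86%. The gene was EIF2B3, a subunit of the eIF2 exchange factor, with 25.1, 26.4 and 24.3 CPM in VEZF1-WT and 23.3, 22.4 and 21.4 CPM in VEZF1-2A. All VEZF1-WT values were above all VEZF1-2A values (log2 fold change 0.18, SE 0.07, p = 0.03007, adjusted p = 0.9996 by edgeR, exact permutation p = 0.1). It was no longer under 0.05 without VEZF1-WT replicate 1 or 2 or VEZF1-2A replicate 2 or 3 (0.14 to 0.18), nor by DESeq2's test. EIF2B1, another subunit, was apart in the other direction, at 27.3 to 29.9 CPM in VEZF1-WT and 30.1 to 31.4 CPM in VEZF1-2A (-0.1, SE 0.065). Overlapping genes had 210.9% of the counts of EIF2B1. The PERK gene EIF2AK3 was at 48.8 to 55.2 CPM in the 6 libraries, with overlapping groups.

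Of 28 other ATF4 targets, 0 passed at an unadjusted p under 0.05 in either direction and the median log2 fold change was -0.01. TRIB3, a pseudokinase that dampens ATF4, had 19.3, 19.4 and 19.9 CPM in VEZF1-WT and 16.0, 22.7 and 16.4 CPM in VEZF1-2A. The VEZF1-WT values were close together and lay inside the range of VEZF1-2A, whose replicate 2 was highest (0.087, SE 0.12, exact permutation p = 0.4). As in the ATF4 arm, VEZF1-2A replicate 2 was the highest library for 15 of these 28 genes (53.6%), though their median deviation there was 0.055, below that of the arm. SLC7A1, a cationic amino acid transporter, was the only one with groups apart, 1 of 28 beside 3.86% of all genes in that direction, at 19.0 to 20.5 CPM in VEZF1-WT and 21.5 to 22.8 CPM in VEZF1-2A.

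Of 48 other XBP1 and ATF6 targets and genes of ER quality control, 47 were tested and 0 passed at an unadjusted p under 0.05, with a median log2 fold change of 0.013. For 25 of the 47 (53.2%) both replicate 3 libraries were highest, compared with 82.4% of the XBP1/ATF6 arm and 15.4% of all genes, and the median deviation in these libraries was 0.083 and 0.086. ATF6B, a relative of ATF6, was the only gene with groups apart, 1 of 47 beside the same 3.86%, at 10.1 to 10.9 CPM in VEZF1-WT and 10.98 to 11.6 CPM in VEZF1-2A (-0.11, SE 0.086). The last list held 12 heat shock genes, mostly of the cytosol but with the mitochondrial chaperone genes HSPD1 and HSPE1 among them. Of the 12, 0 passed in either direction. In 2 of them every VEZF1-WT library was above every VEZF1-2A library, as in 3.5% of all genes (HSPA8 and HSPH1, log2 fold changes 0.076 and 0.1). The median deviation of the 12 genes stayed between -0.061 and 0.033 in all libraries. VEZF1-2A replicate 2, where the ATF4 arm was highest, was the lowest library for 8 of the 12.

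**Figure D5:**
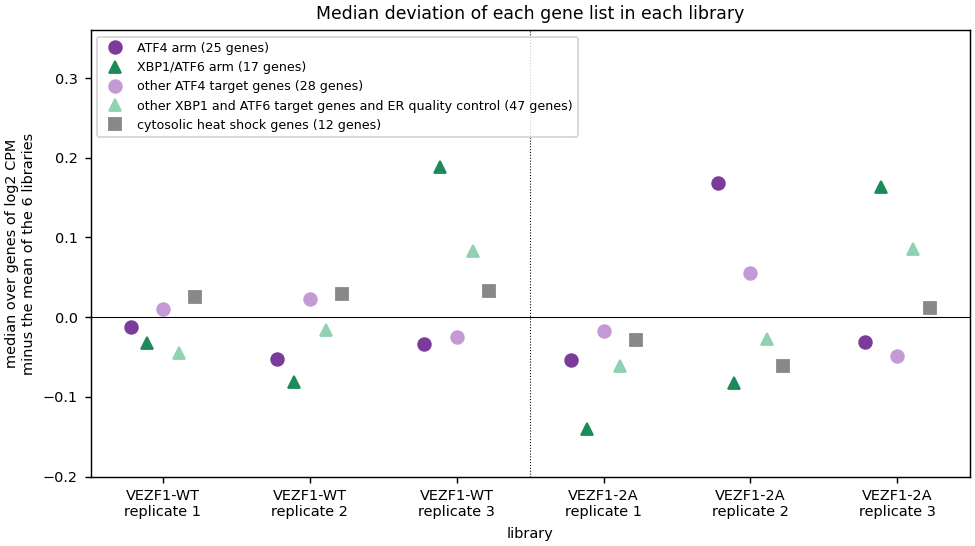
Median over genes of log2 CPM minus the gene's mean over the 6 libraries (y axis) in each library (x axis). Dark purple circles are the ATF4 arm, dark green triangles the XBP1/ATF6 arm, and paler symbols the other targets of each. Grey squares are the heat shock genes labelled cytosolic, which include the mitochondrial HSPD1 and HSPE1. The dark purple circle is highest in VEZF1-2A replicate 2 at 0.17, the dark green triangles in both replicate 3 libraries at 0.19 and 0.16, and the paler symbols move less in the same libraries.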

How the data were processed

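The authors deposited 1 table of read counts per gene for 6 libraries, as whole numbers without normalization. Of 59613 lines, 5 that broke 1 entry (ANK2) were left out. The build is GRCh38 per the labels; aligner, counter, annotation release and strand setting are not given in the sources used here, so reads of overlapping genes may be shared (18 members share exon positions with another gene, 11 of them with partner counts above 10% of their own). Between 65.7% and 67.5% of counts from 11 to 100 were even numbers, for a reason not tested, so tests rest on the spread between replicates.

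Counts were fitted with edgeR 4.0.16 in R 4.3.3 (filterByExpr with minimum count 10 and minimum total 15, TMM, glmQLFit, glmQLFTest, two-sided, group alone), with Benjamini-Hochberg adjustment over 19111 genes. TMM factors were 0.977 to 1.014. CPM used these factors; TPM used the exon length of the table. Exact permutation tests, two-sided, used log2 of CPM plus 0.1. Means ± SD are over 3 libraries. On simulated counts the fit was tested before use. The members, lists and tests were chosen with earlier results of these data known. Values in every library were given for a fixed set of 19 regulators and targets, for members with an unadjusted p under 0.05 or groups apart, for pathway genes under 0.05 and for VEZF1; other genes given so were chosen after their values were seen. Motif shares came from RefSeq windows. Alternatives were other scalings, filters and tests, a replicate block, libraries left out, overlapping genes left out and halved counts.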

Additional observations from a re-analysis of the deposited data

How the results depend on the processing

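Of the settings that left the libraries whole, upper quartile or DESeq2 size factors, a minimum of 1 CPM in 3 libraries, limma voom and halved counts kept the number of members called and the arm medians near those reported. Without a filter on low counts 16 genes passed the adjusted threshold and 896 the unadjusted one (38745 tested), with 5 members of the ATF4 arm, 1 of the XBP1/ATF6 arm (MANF) and 3 other pathway genes, and GARS1 turned to 0.006. DESeq2's test gave 3 and 219 genes and 0 other pathway genes. With overlapping genes left out (8547 tested), 154 genes, 0 members of the ATF4 arm and 0 other pathway genes were under 0.05, and the ATF4 arm median was -0.014 over 14 genes. The causes were not tested, beside the fewer or more genes tested.

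The replicate number as a block gave 6 genes at the adjusted threshold and 825 at the unadjusted one, with 5 members of the ATF4 arm (SLC7A5, ASNS, ALDH1L2, DDIT4 and CBS), 2 of the XBP1/ATF6 arm (MANF and DNAJB9) and 5 other pathway genes. The numbers were not taken to pair the samples, since the labels name no source shared by equal numbers. The deviations of same-numbered libraries correlated across 19111 genes with r of 0.082, 0.15 and 0.38, all above 0. Pairs with unequal numbers were mostly below 0, from -0.294 to 0.181. The highest of these, VEZF1-WT replicate 2 with VEZF1-2A replicate 1, exceeded the 0.15 of the replicate 2 pair. Whether libraries of the same number shared a batch was not tested.

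With 1 library left out in turn, 0 genes passed the adjusted threshold and 292 to 973 the unadjusted one (973 without VEZF1-2A replicate 3). The ATF4 arm then held 0 to 4 members under 0.05, with 4 without VEZF1-2A replicate 1 or replicate 3, and a median of -0.099 to 0.046. The XBP1/ATF6 arm held 0 to 4 (XBP1, MANF, DNAJB9 and PDIA4 without VEZF1-2A replicate 3), with a median of -0.037 to 0.14, and the other pathway genes 0 to 3. Log2 fold changes changed sign in 47 of 288 such fits, over these genes and ranges: AARS1 (-0.083 to 0.022), ASNS (-0.59 to 0.024), ATF3 (-0.048 to 0.22), ATF4 (-0.078 to 0.081), CALR (-0.037 to 0.19), CEBPG (-0.045 to 0.089), CRELD2 (-0.023 to 0.17), CTH (-0.35 to 0.15), DDIT3 (-0.13 to 0.004), DNAJC3 (-0.10 to 0.088), EDEM1 (-0.092 to 0.040), ERN1 (-0.16 to 0.11), GARS1 (-0.052 to 0.067), GDF15 (-0.20 to 0.001), HERPUD1 (-0.10 to 0.096), HSP90B1 (-0.070 to 0.14), HSPA5 (-0.043 to 0.15), HYOU1 (-0.044 to 0.12), MTHFD2 (-0.042 to 0.048), NUPR1 (-0.31 to 0.084), PDIA4 (-0.039 to 0.21), PDIA6 (-0.008 to 0.062), PHGDH (-0.10 to 0.090), PPP1R15A (-0.094 to 0.12), PSAT1 (-0.083 to 0.026), SDF2L1 (-0.089 to 0.25), SHMT2 (-0.099 to 0.043), SLC3A2 (-0.17 to 0.046), VLDLR (-0.69 to 0.14), TRIB3 (-0.001 to 0.27) and VEZF1 (-0.064 to 0.24). Library size alone, chosen after seeing the data, left the replicate 3 pattern at 14 of 17 genes and the VEZF1-2A replicate 2 pattern at 21 of 25. Halved counts kept the calls of members and their directions.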

Other observations

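The ER and hepatocyte genes that were high in the replicate 3 libraries were not the only ones. The DNA replication genes, a list of 10 chosen after the values were seen, summed to 1097, 909.9 and 1078 CPM in VEZF1-WT replicates 1 to 3 and to 948.4, 933.4 and 1098 CPM in VEZF1-2A replicates 1 to 3. Unlike the XBP1/ATF6 arm, they were also high in VEZF1-WT replicate 1. CCNE2, a cyclin that acts at the start of replication, was the only one of them with an unadjusted p under 0.05 (log2 fold change 0.36, SE 0.14, adjusted p = 0.9996 by edgeR, exact permutation p = 0.2). It was lowest in VEZF1-2A replicate 3, at 5.28 CPM, and overlapping genes had 203.4% of its counts. FGB, a fibrinogen chain made by hepatocytes, had 460.1, 420.1 and 804.3 CPM in VEZF1-WT and 356.7, 435.1 and 734.6 CPM in VEZF1-2A, and LYZ had 522.1, 497.0 and 663.2 CPM against 493.5, 554.5 and 639.6 CPM.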
